A study of Mus musculus with 12 samples.

Results

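The subunits of respiratory chain complexes I, II and III and of ATP synthase (complex V) were read in mouse plasmablasts (PBs) and splenic plasma cells (PCs) that carried or lacked the transcription factors Xbp1 and Mist1 (encoded by Bhlha15). The 51 genes were taken by name from the Ndufa, Ndufb, Ndufs, Ndufv, Sdh, Uqcr, Cyc1 and Atp5 families, out of 24189 gene rows shared by all 10 RNA-seq libraries. No expression value entered this rule by name, but the subunits were chosen with earlier results of these data known. The 51 genes comprised 29 genes of complex I, 4 of complex II, 6 of complex III and 12 of ATP synthase. All 51 were found in every library. Of these, 50 passed the filter of at least 1 TPM (a read share scaled to transcript length and to a fixed total per library) in at least 2 libraries of a fit. The exception was Ndufs5, a complex I accessory subunit, which was listed at 0 TPM in 8 libraries and at 0.236 and 0.181 TPM in the other 2.

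The respiratory chain sits in the inner mitochondrial membrane. Complex I takes electrons from NADH and complex II takes them from succinate, a step that also belongs to the citric acid cycle. Complex III passes them on to cytochrome c, complex IV hands them to oxygen, and ATP synthase uses the resulting proton gradient to make ATP. Complex I is built from core subunits, which carry the flavin, the iron-sulfur clusters and the quinone site, and from accessory subunits, which surround the core and are needed to assemble and hold it. ATP synthase has a catalytic head and a central stalk (F1), a membrane ring of c subunits that turns, and a peripheral stalk that holds the head still. Nearly all of these subunits are encoded in the nucleus, so that their transcripts are polyadenylated and appear in RNA-seq data. Cells that secrete antibody spend ATP on protein synthesis, folding and export. Xbp1 is the factor activated by the endoplasmic reticulum stress sensor Ire1, and Mist1 is a basic helix-loop-helix factor of secretory cells.

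Each of 5 groups held 2 libraries. PBs were obtained from splenic CD43- B cells on 40LB feeder cells, fibroblasts that supply BAFF and CD40 ligand, with IL-4 and then IL-21, and were sorted on day 8 by surface markers, among them presence of CD138 and absence of CD23. Their genotypes were Xbp1 fl/fl (control PBs, with floxed and intact Xbp1), Cd23-Cre Xbp1 fl/fl (Xbp1-deficient) and Bhlha15 CreER/CreER (Mist1-deficient, because CreER is inserted into both alleles of Bhlha15). Splenic PCs were sorted as TACI+CD138+ cells on day 7 after immunization with NP-KLH in alum, and were either control PCs, labelled wild-type in the sample record and described as Bhlha15 fl/fl in the study's methods, or Cd23-Cre Bhlha15 fl/fl PCs (Mist1-deficient). The Cd23-Cre transgene starts to recombine in immature B cells, so that both conditional lines lost their gene well before PB or PC formation. The CreER/CreER libraries have no littermate control here and were compared with Xbp1 fl/fl PBs. The study calls its PB libraries independent experiments. The labels do not tie the 2 libraries of a group to separate mice or cultures, and where these were shared the p-values measure only the spread between these libraries.

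The files gave TPM, which hold no read counts, so the depth behind each value is unknown and no counting interval could be given. Between 11514 and 12024 genes reached 1 TPM per library. Bhlha15 stood at 176 and 159 TPM in control PBs, at 3.57 and 2.60 TPM in Xbp1-deficient PBs, at 0.210 and 0.551 TPM in CreER/CreER PBs, at 258 and 242 TPM in control PCs and at 14.4 and 16.6 TPM in Mist1-deficient PCs. Xbp1 fell from 3168 and 3043 TPM to 1981 and 2024 TPM in its own mutant, with a log2 change of -0.84 ± 0.12 (SE, adjusted p = 0.00144, limma), and reads outside the deleted part still count towards that value. Plasma cell genes were present in every library, Sdc1 (CD138) between 157 and 571 TPM and Irf4 between 651 and 971 TPM. Markers of other cells differed between groups. The summed level of 8 fibroblast genes was 953 to 1891 TPM in PBs and 25.7 to 31.4 TPM in PCs, and that of 8 neutrophil genes was 3.90 to 11.6 TPM in control and CreER/CreER PBs, 133 to 134 TPM in Xbp1-deficient PBs and 461 to 988 TPM in PCs. Their part in the values below was not tested. In sorted populations such as these, fewer cells of a type and less RNA per cell cannot be told apart.

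The 51 transcripts together made up 1.79% and 1.74% of all TPM in control PBs, with sums of 17893 and 17422 TPM. The sum was 20436 and 20078 TPM in Xbp1-deficient PBs, and 17916 and 18938 TPM in CreER/CreER PBs. Control PCs had the lowest sums, 14966 and 15713 TPM, followed by Mist1-deficient PCs with 15827 and 16153 TPM. On this deposited scale the Xbp1-deficient PBs were above every other library and all PCs were below all PBs. The order of the complexes did not differ between groups: complex I contributed 6838 to 9273 TPM, ATP synthase 5616 to 7590 TPM, complex III 1667 to 2388 TPM and complex II 842 to 1203 TPM. This order is also that of the number of genes summed (29, 12, 6 and 4). Per gene, the median in control PBs was lowest in complex I (193.5 TPM), then 245.7 in complex II, 292.5 in complex III and 383.3 in ATP synthase.

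**Figure D1:**
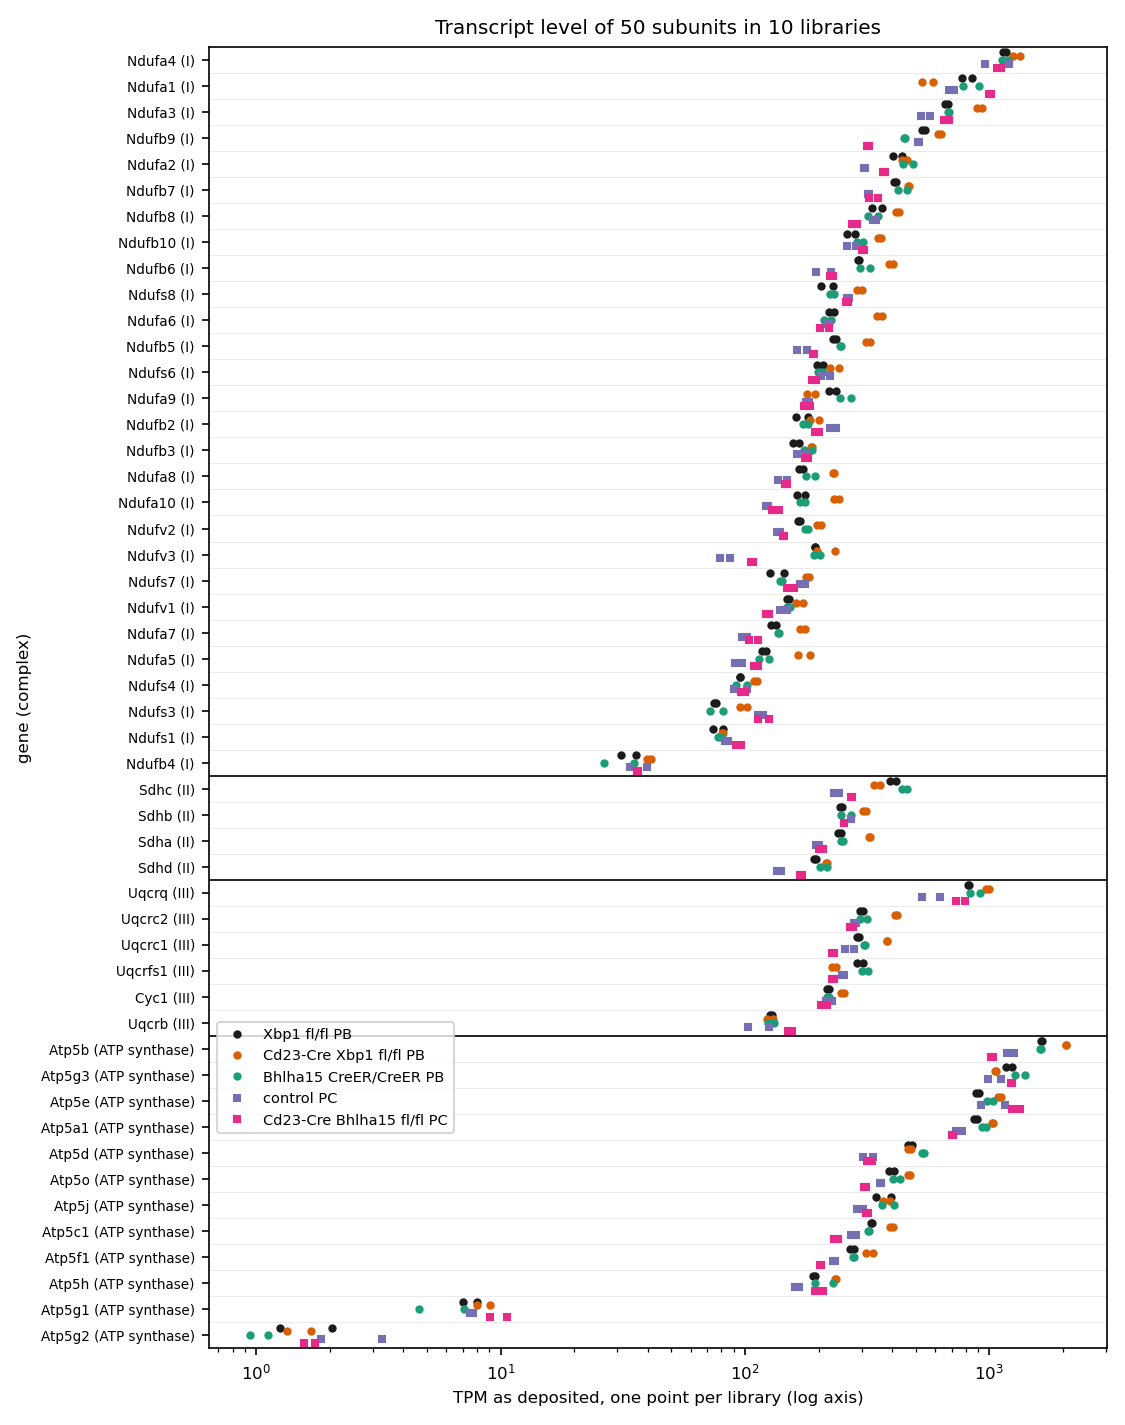
Level of 50 subunits in the 10 libraries, in TPM on a log axis, with a row per gene and a point per library, coloured by group and sorted within each complex by mean level. Atp5b is at or near the right end, whereas Atp5g1 and Atp5g2 lie far to the left of Atp5g3, and the Xbp1-deficient PBs are the rightmost points for many genes.

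TPM are scaled by transcript length, so that subunits can be compared with each other. The highest of them in control PBs was Atp5b, the catalytic beta subunit of the F1 head, at 1645 and 1620 TPM, against 1260 and 1175 TPM in control PCs. Its partner Atp5a1, the alpha subunit, stood at 893 and 867 TPM in control PBs and at 772 and 732 TPM in control PCs. Atp5g3 and Ndufa4, a subunit named for complex I that has also been placed in complex IV, followed, at 1242 and 1170 TPM and at 1167 and 1133 TPM. Core subunits of complex I were far lower. Ndufs1, which carries iron-sulfur clusters of the electron path, had 73.6 and 81.0 TPM in control PBs and 83.1 and 85.1 TPM in control PCs. Ndufv1, which binds the flavin and NADH, had 151 and 148 TPM in control PBs and 148 and 138 TPM in control PCs. The 6 core subunits of complex I summed to 837 and 805 TPM in control PBs, against 7108 and 6972 TPM for the 23 accessory subunits. Per gene the medians were closer, at 142.4 TPM for core and 226.6 TPM for accessory subunits. In complex II the catalytic subunits Sdha (the flavoprotein) and Sdhb (the iron-sulfur protein) lay close together, at 247 and 241 TPM and at 250 and 245 TPM in control PBs. In complex III the cytochrome c1 gene Cyc1 had 216 and 221 TPM and the core protein gene Uqcrc1 293 and 286 TPM.

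The c ring is encoded by 3 genes whose mature proteins are the same, and their transcripts differed most in level. Atp5g3 stood at 1242 and 1170 TPM in control PBs, Atp5g1 at 6.98 and 8.02 TPM and Atp5g2 at 1.25 and 2.04 TPM. Over all 10 libraries Atp5g1 ranged from 4.65 to 10.6 TPM and Atp5g2 from 0.945 to 3.27 TPM. For these genes the counting is uncertain. When the longest annotated transcript of each member was aligned to the mm9 genome, Atp5g2 had 3 other loci and Atp5g1 had 1 with at least 95% identity over at least 200 bases, and so had Ndufs5 (1 locus, 437 bases at 99.5%), whereas Atp5g3 had none. In all, 14 of 51 members had such a copy and 13 had an exon that overlaps another annotated gene, 6 had both and 30 had neither. How the authors treated reads that align to several places, or used strand, is not given in the sources used here, and a low value of a member with a copy is not evidence of low expression.

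Deletion of Xbp1 was compared with its control in a fit over the 6 PB libraries. On the scale set by the median of ratios over all genes, 2 of 50 subunits were higher and 5 were lower in Xbp1-deficient PBs at an adjusted p under 0.05 (limma with Benjamini-Hochberg adjustment over 12125 genes), while 10.3% of all genes tested were higher and 18.0% were lower. The median log2 change of the subunits was 0.03, against 0.0041 for all genes. No subunit met the study's selection rule of over 3-fold, adjusted p under 0.05 and over 5 TPM (0 of 50 by limma, against 1.87% of all genes in either direction). At an unadjusted p under 0.05 limma gave 11 higher and 6 lower, against 1993 and 2801 of 12125 genes.

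The subunits that fell came from all 4 complexes. Ndufa1, a small membrane-arm accessory subunit of complex I needed for its assembly, had 845 and 770 TPM in control and 585 and 531 TPM in Xbp1-deficient PBs, a log2 change of -0.74 ± 0.14 (SE, adjusted p = 0.00478). Uqcrfs1, the Rieske iron-sulfur protein of complex III, had 304 and 287 TPM in control and 237 and 227 TPM in Xbp1-deficient PBs, a log2 change of -0.56 ± 0.098 (adjusted p = 0.00357). Neither gene overlapped between the groups, and Uqcrfs1 was past the threshold in all 14 alternatives run for this comparison. Ndufa9, an accessory subunit where the arms of complex I meet, had 237 and 220 TPM against 194 and 179 TPM (log2 change -0.50 ± 0.11, adjusted p = 0.0123). Sdhc, which anchors complex II in the membrane, had 414 and 393 TPM against 337 and 357 TPM (log2 change -0.42 ± 0.10, adjusted p = 0.0146). Atp5g3 of the c ring had 1242 and 1170 TPM against 1069 and 1050 TPM (log2 change -0.39 ± 0.12, adjusted p = 0.0456). These 5 were the same genes under all 3 scalings.

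The 2 subunits that rose belong to the matrix arm of complex I. Ndufa6 had 232 and 221 TPM in control and 364 and 347 TPM in Xbp1-deficient PBs (log2 change 0.44 ± 0.10, adjusted p = 0.0120). Ndufa5 had 117 and 122 TPM against 184 and 165 TPM (log2 change 0.34 ± 0.10, adjusted p = 0.0389). Both were higher in each Xbp1-deficient library than in each control library. Apart from Uqcrfs1, the core and catalytic subunits were not past the threshold. Ndufs1 had 81.4 and 80.7 TPM and Ndufv1 172 and 161 TPM in Xbp1-deficient PBs, Sdha 322 and 326 TPM, Sdhb 311 and 305 TPM, Uqcrc1 383 and 381 TPM, Cyc1 255 and 248 TPM, Atp5a1 1033 and 1020 TPM, and Atp5b 2062 and 2060 TPM. Atp5g1 had 8.00 and 9.07 TPM and Atp5g2 1.68 and 1.33 TPM.

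The number of subunits called higher turned on the scaling. With TPM as deposited 33 subunits were higher and 5 lower (66.0% and 10% of 50, against 28.2% and 11.2% of all genes), and with quantile normalization 30 were higher and 5 lower (60.0% and 10%, against 20.8% and 16.2%). The deposited scale moved the median of all genes by 0.21 on the log2 scale, and relative to that median the subunits differed by 0.03. Under quantile normalization they stood 0.16 above the median of all genes. Plasma cell markers also differed in level between these groups. Out of 1000000 TPM per library, the 9 markers summed to 42015 and 42027 TPM in control PBs and to 21974 and 21324 TPM in Xbp1-deficient PBs. Of these markers, Igj (the J chain) held 21687 and 22486 against 14414 and 13743 TPM. Their part in the deposited-scale shift was not tested. The count of higher subunits was also 10 without CreER/CreER replicate 2, 9 without CreER/CreER replicate 1 and 10 with only the 4 libraries compared, and it was 0 without control PB replicate 2 or Xbp1-deficient replicate 1 and 1 without control PB replicate 1. The count of lower subunits was 1 without control PB replicate 1 and 3 without either Xbp1-deficient replicate.

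**Figure D2:**
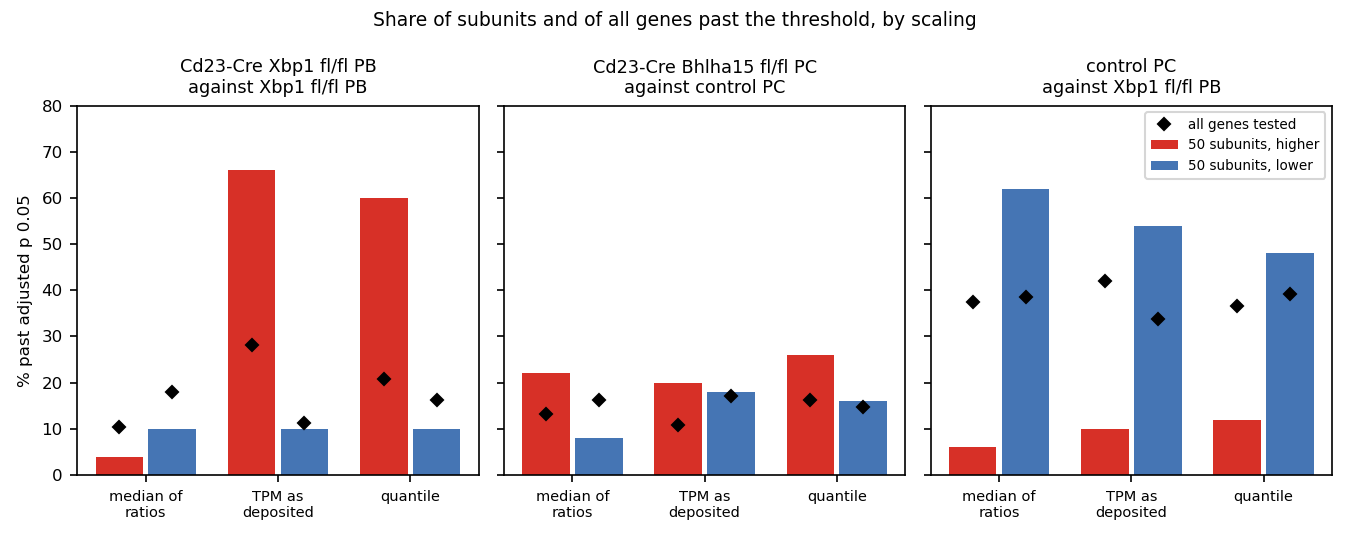
Percent of the 50 tested subunits that were higher (red bars) or lower (blue bars) at an adjusted p under 0.05 in 3 comparisons under 3 scalings, with black diamonds for the same percent over all genes tested. Without Xbp1 the share of higher subunits goes from 4.00% by the median of ratios to 66.0% with TPM as deposited, whereas the share of lower subunits is 10% in each.

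The RefSeq promoter windows (250 bases before to 50 bases after a transcription start, GRCm38.p6) were available for 42 of the 51 members, and were searched on both strands for 5 short motifs. Not matched were Ndufa2, Ndufb9, Ndufs1, Sdhc, Uqcrc2, Uqcrb, Uqcrq, Cyc1 and Atp5a1. CCGGAAG, a site of the ETS family that includes GABP, was in 9 members (21.4%) and in 9.93% of 27025 genes with a window. GCGCATGC, the core of an NRF1 site, was in 5 members (11.9%) and in 3.05% of all genes. TGACGTG, the letters of an Xbp1-type site, was in none of the 42 and in 2.22% of all genes. CAGCTG and CATATG, E-boxes of the kind that Mist1 binds, were in 5 (11.9%) and in 0 members, and in 18.3% and 4.48% of all genes. These matches are letters only. The window of Ndufa6, which rose without Xbp1, and those of Sdhb and Atp5b, catalytic subunits that were not past the threshold, are given 5′ to 3′ on the gene's strand, with the matched motifs in capitals (on either strand).
Ndufa6, chr15:82354242-82354541, minus strand: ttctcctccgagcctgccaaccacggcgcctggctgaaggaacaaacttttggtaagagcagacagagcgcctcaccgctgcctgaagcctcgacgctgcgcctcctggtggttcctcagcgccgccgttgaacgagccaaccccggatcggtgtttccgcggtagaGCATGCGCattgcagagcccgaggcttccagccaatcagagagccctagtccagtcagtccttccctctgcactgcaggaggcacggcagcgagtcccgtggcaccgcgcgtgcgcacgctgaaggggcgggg
Sdhb, chr4:140961021-140961320, plus strand: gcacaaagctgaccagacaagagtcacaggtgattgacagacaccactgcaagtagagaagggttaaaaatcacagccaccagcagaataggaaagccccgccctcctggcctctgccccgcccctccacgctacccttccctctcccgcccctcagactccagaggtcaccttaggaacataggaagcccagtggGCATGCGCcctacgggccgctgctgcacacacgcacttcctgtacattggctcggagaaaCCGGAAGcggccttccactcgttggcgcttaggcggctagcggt
Atp5b, chr10:128083057-128083356, plus strand: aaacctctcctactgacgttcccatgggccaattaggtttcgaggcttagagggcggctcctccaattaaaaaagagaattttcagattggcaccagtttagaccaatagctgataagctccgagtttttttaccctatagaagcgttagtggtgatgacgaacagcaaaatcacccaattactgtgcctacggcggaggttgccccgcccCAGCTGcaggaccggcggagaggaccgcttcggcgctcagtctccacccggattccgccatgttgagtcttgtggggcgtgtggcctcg
The matches do not overlap. Ndufa6 holds an NRF1-type match, Sdhb holds an NRF1-type and an ETS-type match, and Atp5b holds a CAGCTG close to its start site. The windows of Ndufa1, Ndufa9, Uqcrfs1 and Atp5g3, which fell, hold none of the 5, and neither do those of Ndufa5, which rose.

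In CreER/CreER PBs, which lack Mist1 but keep Xbp1 (2978 and 2917 TPM), 0 of 50 subunits were past the threshold by limma against control PBs, where 0.0495% of all genes were higher and 0.272% lower. At an unadjusted p under 0.05, 1 subunit was higher (Atp5d) and 1 lower (Ndufb9), against 575 and 692 of 12125 genes. The median log2 change of the subunits was 0.10, and 44 of 50 estimates were above 0. Over all genes the median was 0.0044, with 6205 of 12125 estimates above 0. CreER/CreER replicate 2 set that median: without it the median was -0.02, and without replicate 1 it was 0.21. Quantile normalization gave 1 lower subunit, Ndufb9, with 446 and 453 TPM in CreER/CreER and 530 and 543 TPM in control PBs. The groups did not overlap for Ndufb9, and its estimate of -0.21 ± 0.088 had an adjusted p of 0.456. In the other complexes the estimates farthest from 0 were 0.20 for Sdhc (SE 0.10, 438 and 460 TPM), 0.13 for Uqcrq (SE 0.11, 833 and 915 TPM) and -0.55 for Atp5g2 (SE 0.36, 0.945 and 1.12 TPM). The absence of calls does not show that the subunits were equal, since the 2 CreER/CreER libraries were a median of 0.22 apart (log2) over the members, against 0.056 to 0.12 in the other groups of PBs.

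The Xbp1-deficient and CreER/CreER PBs were also compared directly. Ndufa6 was higher, and Ndufa1, Ndufa9, Sdhc, Uqcrfs1, Atp5g3 and Atp5d were lower without Xbp1, so 1 and 6 of 50, against 9.34% and 17.8% of all genes. Ndufa9 had 245 and 271 TPM in CreER/CreER PBs, a log2 change of -0.72 ± 0.11 (adjusted p = 0.00217, limma), and Uqcrfs1 had 302 and 317 TPM, a log2 change of -0.67 ± 0.098 (adjusted p = 0.00143). Ndufa1, Ndufa9, Sdhc and Uqcrfs1 were called in all 14 alternatives. Atp5d, the delta subunit of the central stalk, had 531 and 540 TPM in CreER/CreER PBs and 479 and 464 TPM without Xbp1 (log2 change -0.44 ± 0.093, adjusted p = 0.00967). This comparison shares the Xbp1-deficient libraries with the one before and is no independent repeat of it. Here too the scaling set the number of higher subunits, which was 29 both on the deposited scale and after quantile normalization, with 6 lower in each. The shares of all genes under these scalings are not given here, so a shift of all genes cannot be told apart. The higher count was 8 without CreER/CreER replicate 2 and 0 without Xbp1-deficient replicate 1, and the lower count was 13 without CreER/CreER replicate 1 and 4 without Xbp1-deficient replicate 2.

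Loss of Mist1 in splenic PCs was tested over the 4 PC libraries. Of 50 subunits 11 were higher and 4 were lower in Mist1-deficient PCs at an adjusted p under 0.05 (limma over 12028 genes), against 13.3% and 16.2% of all genes. The study's rule of over 3-fold was met by 0 of 50 (limma, against 0.848% of all genes), and at an unadjusted p under 0.05 limma gave 16 higher and 9 lower, against 2536 and 2641 of 12028 genes. With TPM as deposited 10 were higher and 9 lower, and with quantile normalization 13 and 8. The median of the subunits was 0.06 on the log2 scale and that of all genes 0.01.

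**Figure D3:**
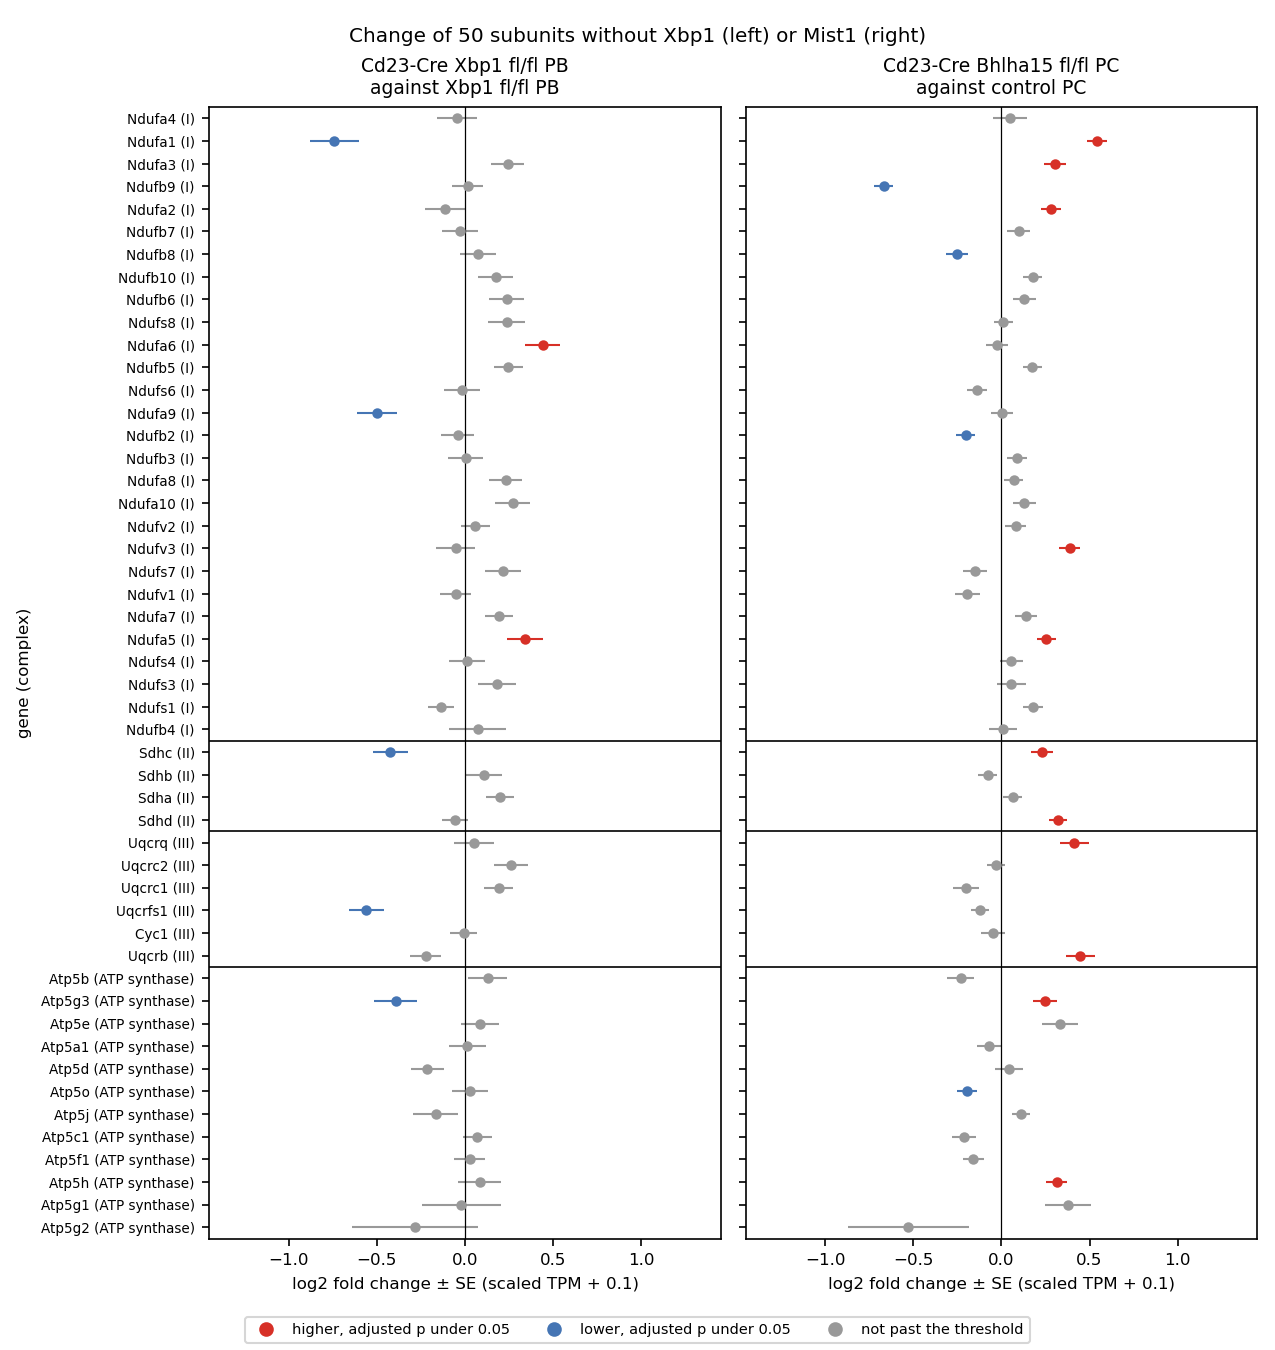
Log2 fold change (± SE, 2 libraries per group) of 50 subunits in Xbp1-deficient PBs against control PBs (left) and in Mist1-deficient PCs against control PCs (right), in the order of the plot of levels, with red and blue for genes past the threshold. Ndufa1 is the lowest point on the left at -0.74 and the highest called point on the right at 0.54, and Ndufb9 is the lowest on the right at -0.67.

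Ndufb9 had the largest fall. This accessory subunit lies in the membrane arm of complex I, and its gene is at chr15:58765365-58771044 on the plus strand of mm9. It had 509 and 516 TPM in control PCs and 321 and 316 TPM in Mist1-deficient PCs, a log2 change of -0.67 ± 0.053 (SE, adjusted p = 0.00176). Both mutant libraries lay far below both control libraries, and the call held in all 11 alternatives. Ndufb8 had 343 and 335 TPM against 273 and 287 TPM (log2 change -0.25 ± 0.062, adjusted p = 0.0302), and Ndufb2 had 224 and 236 TPM against 193 and 201 TPM (log2 change -0.20 ± 0.054, adjusted p = 0.0396). In ATP synthase Atp5o, the subunit that joins the peripheral stalk to the head, had 361 and 358 TPM against 313 and 306 TPM (log2 change -0.20 ± 0.056, adjusted p = 0.0474). Exons of Ndufb8, Ndufb2 and Atp5o overlap those of other genes (Sec31b, Adck2 and Donson among them), so part of their values could belong to a neighbour. Ndufb2 and Atp5o also have near-identical copies elsewhere in the genome, 12 and 1.

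Among the subunits that rose, Ndufa1 had 684 and 717 TPM in control and 994 and 1018 TPM in Mist1-deficient PCs, a log2 change of 0.54 ± 0.057 (adjusted p = 0.00281), and it too held in all 11 alternatives. Both small subunits of complex III rose. Uqcrb had 103 and 125 TPM against 156 and 149 TPM (log2 change 0.45 ± 0.083, adjusted p = 0.0134), and Uqcrq had 532 and 626 TPM against 727 and 792 TPM (log2 change 0.41 ± 0.083, adjusted p = 0.0174). The control libraries of these genes were less alike than the mutant ones. Both membrane anchors of complex II rose as well. Sdhd had 135 and 140 TPM against 168 and 171 TPM (log2 change 0.32 ± 0.052, adjusted p = 0.00927), and Sdhc had 242 and 231 TPM against 272 and 275 TPM (log2 change 0.23 ± 0.063, adjusted p = 0.0432). Ndufv3, an accessory subunit beside the flavoprotein, had 78.7 and 87.1 TPM against 106 and 108 TPM (log2 change 0.39 ± 0.059, adjusted p = 0.00766). In ATP synthase Atp5h, the d subunit of the peripheral stalk, had 160 and 166 TPM against 208 and 193 TPM (log2 change 0.31 ± 0.059, adjusted p = 0.0142), and Atp5g3 had 990 and 1115 TPM against 1226 and 1234 TPM (log2 change 0.25 ± 0.067, adjusted p = 0.0404). The other members that rose were Ndufa2, Ndufa3 and Ndufa5, with log2 changes between 0.26 and 0.30. Among the risers, Uqcrb has 3 near-identical copies elsewhere in the genome and overlaps Gm10767 on the other strand. Atp5h has 4 copies, and Ndufa2 overlaps Tmco6 on the other strand. Part of the values of these genes could belong to other loci. The remaining risers had neither a copy nor an overlap.

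The catalytic subunits were not past the threshold in PCs. In Mist1-deficient PCs Ndufs1 had 96.1 and 92.1 TPM and Ndufv1 122 and 125 TPM, Sdha 208 and 200 TPM, Sdhb 254 and 254 TPM, Uqcrc1 232 and 228 TPM, Cyc1 216 and 204 TPM, Atp5a1 705 and 710 TPM, and Atp5b 1031 and 1015 TPM. Atp5g1 had 9.01 and 10.6 TPM and Atp5g2 1.57 and 1.74 TPM. Thus the calls lay on accessory, anchor, small and stalk subunits and on Atp5g3. The members that rose had short transcripts, with a median of 595 bases against 963 bases for members not past the threshold, and over all genes the medians were 1990 bases for genes that rose and 2299 bases for genes that fell. The members that fell were as short, at 606 bases. Of 12 proliferation genes 7 fell and of 8 T cell genes 2 rose in the same comparison. The part of length and of these genes in the result was not tested. The counts rest on both mutant libraries: without either of them 1 subunit was higher (Ndufa1) and 1 lower (Ndufb9), and without control replicate 2 there were 16 and 10.

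Some subunits moved one way without Xbp1 in PBs and the other way without Mist1 in PCs. Ndufa1, Sdhc and Atp5g3 fell in the former and rose in the latter, which is 3 of the 5 that fell and 3 of the 11 that rose. Ndufa5 rose in both. Of all genes tested, 18.0% fell without Xbp1 and 13.3% rose without Mist1 in PCs. How many genes did both was not counted, so the overlap has no background here. The comparisons share no library, differ in cell stage and were not tested against each other. In Xbp1-deficient PBs Bhlha15 itself was at 3.57 and 2.60 TPM, so that these cells had little Bhlha15 transcript, and Ndufb9, at 633 and 619 TPM, was not below its control.

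**Figure D4:**
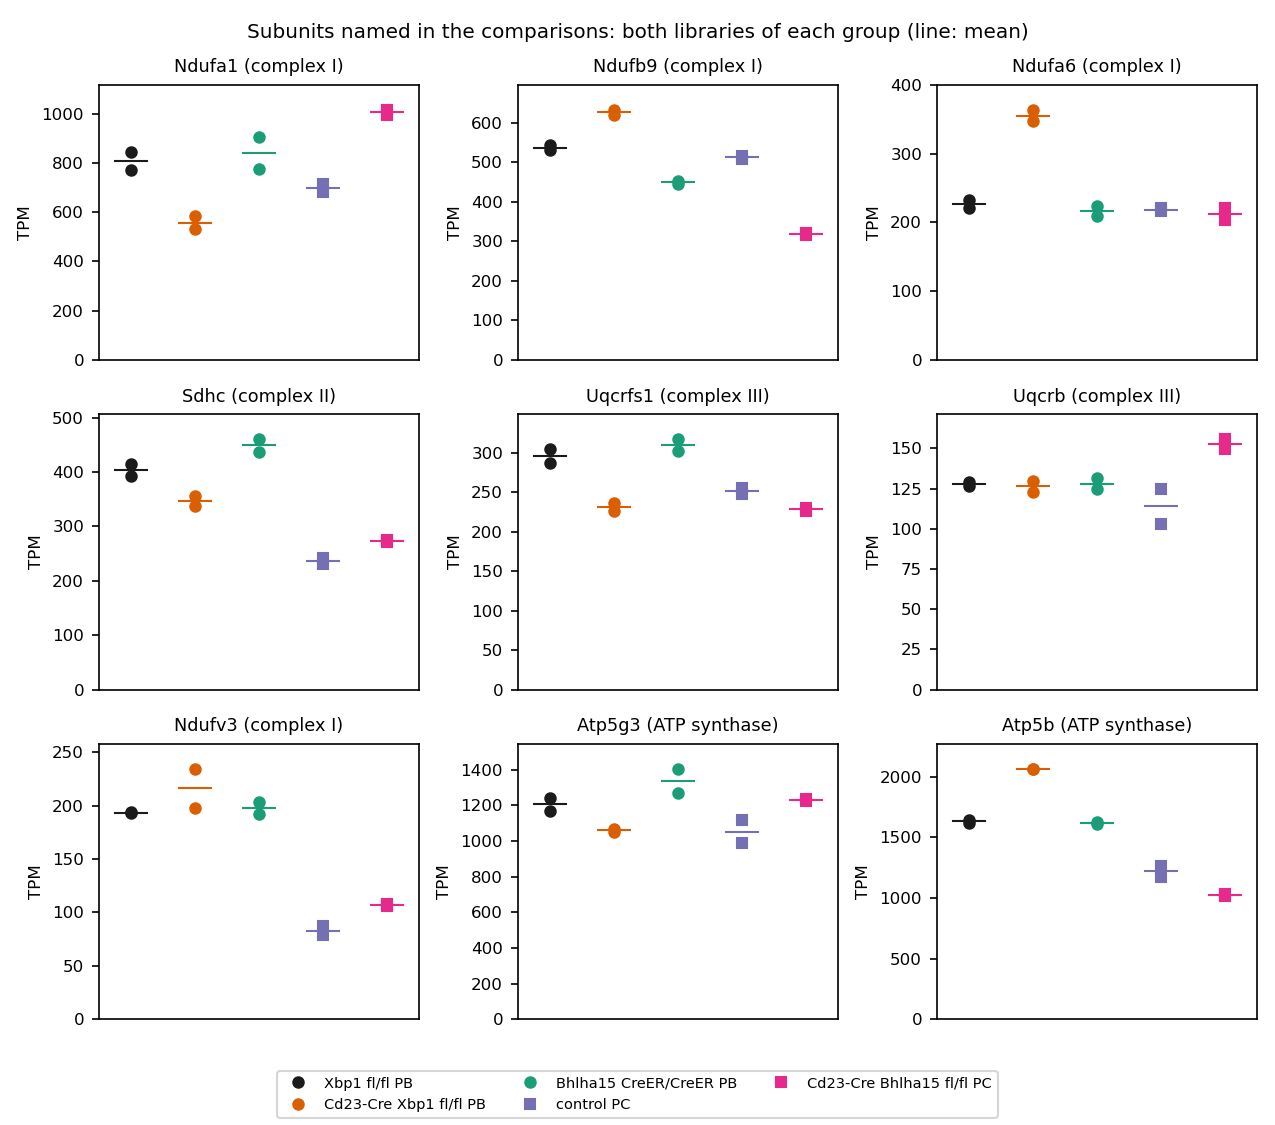
TPM as deposited of 9 subunits in both libraries of the 5 groups, each axis starting at 0, with circles for PBs, squares for PCs and a line at the mean. Ndufb9 is lowest in the Mist1-deficient PCs (321 and 316 TPM), Ndufa6 stands apart in the Xbp1-deficient PBs (364 and 347 TPM), and Ndufv3 is lower in all PCs than in all PBs.

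The change of Ndufb9 differed between the cell types. Its log2 change upon Mist1 loss in PCs minus that in PBs was -0.44 ± 0.082 (SE, adjusted p = 0.0206, limma over all 10 libraries), and it was the single subunit of 50 past the threshold, against 1.94% of all genes above and 4.17% below 0. No subunit with a difference above 0 was past the threshold by limma. At an unadjusted p under 0.05, 6 were above 0, and the matching count over all genes is not given here. In the other complexes the differences farthest from 0 were 0.18 for Sdhd (SE 0.066), 0.42 for Uqcrb (SE 0.12) and 0.73 for Atp5g1 (SE 0.30), none past the threshold. With TPM as deposited 1 subunit (Ndufa1) was past the threshold above 0 and 3 (Ndufb9, Atp5o and Uqcrc1) were past it below 0. With quantile normalization these counts were 4 and 4. The call on Ndufb9 was lost when either Mist1-deficient PC library, either control PB library or control PC replicate 1 was left out, which gave 0 below, and 2 were below without control PC replicate 2 or CreER/CreER replicate 1, with 1 above 0 in the former, and 2 were above without CreER/CreER replicate 2. The alleles, controls and sources of the cells also differ between both sides of this comparison and cannot be told apart from the cell type.

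Mist1 binding gave a readout that the rule by name did not use. The authors called peaks in 2 Bio-ChIP experiments, which pull down biotin-tagged Mist1 with streptavidin, in PBs obtained from Bhlha15 fl/fl R26 BirA/BirA B cells after 4 days with lipopolysaccharide. The lists used here held 29413 and 30247 peaks. They are shorter than the lists the study describes, so that a subunit without a region here may have a peak that was not analysed here. Peaks of the 2 lists that overlap formed 23806 common regions. A common region lay within 1 kb of an annotated start site for 35 of 51 subunits (68.6%), and for 63.2% of 10859 genes tested. Among the 4539 genes at least as high as the members above 20 TPM the share was 76.8%. By complex it was 18 of 29 genes in complex I, 2 of 4 in complex II, 4 of 6 in complex III and 11 of 12 in ATP synthase, where Atp5g1 was the gene without a region. All 4 subunits that fell in Mist1-deficient PCs had a region, as did 4 of the 11 that rose (36.4%) and 26 of the 35 not past the threshold (74.3%). Over all genes these shares were 83.3% of those that fell, 57.5% of those that rose and 62.5% of the rest. The members went the same way as all genes did, and with so few of them no more can be read from the shares. The peak files hold positions and no heights, so the strength of binding could not be compared.

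The region at Ndufb9 was the widest among the subunits. It ran over chr15:58762746-58766857 (mm9) and covered 4112 bases, where the median width at members was 1287 bases, and its centre lay at -564 bases from the start site, upstream of it. The centre of a region stands in for its summit, which the files do not give. The middle 200 bases of that region, chr15:58764702-58764901 on the plus strand, are shown in lower case because they hold neither CAGCTG nor CATATG.
Ndufb9 region centre: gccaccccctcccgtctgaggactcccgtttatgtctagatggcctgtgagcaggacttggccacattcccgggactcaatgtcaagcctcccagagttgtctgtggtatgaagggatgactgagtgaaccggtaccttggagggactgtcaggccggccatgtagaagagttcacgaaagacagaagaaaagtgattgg
In the middle 200 bases, CAGCTG was present in 5 of 35 regions at subunits (14.3%: Ndufs1, Ndufv2, Uqcrc2, Atp5b and Atp5h) and in 27.9% of all common regions, and CATATG in 1 (Sdhb, 2.86%) and 11.5%. The 35 regions were taken within 1 kb of a start site, whereas all common regions were taken wherever they lie. These shares are therefore not a like comparison, and regions at start sites of other genes were not searched separately. Atp5b thus holds CAGCTG both in its promoter window above and at the centre of its Mist1 region, and its level in Mist1-deficient PCs (1031 and 1015 TPM against 1260 and 1175 TPM) gave a log2 change of -0.23 ± 0.076 with an adjusted p of 0.0684.

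Cultured PBs and splenic PCs of the control genotypes differed most. Control PCs had 3 subunits higher and 31 lower than control PBs of 50 tested (limma over 13230 genes), against 37.6% and 38.4% of all genes. The median of the subunits was -0.31 and that of all genes 0.0064 on the log2 scale. With TPM as deposited 5 were higher and 27 lower, and with quantile normalization 6 and 24. The fall covered 14 of 28 tested genes of complex I, 3 of 4 of complex II, 5 of 6 of complex III and 9 of 12 of ATP synthase. Stage, culture, sort, floxed gene and experiment cannot be told apart in this comparison, and the 12 proliferation genes all fell (summed level 2210 to 2250 TPM in control PBs and 1034 to 1116 TPM in control PCs).

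Ndufv3 had the largest fall, from 194 and 193 TPM to 78.7 and 87.1 TPM, a log2 change of -1.34 ± 0.092 (adjusted p = 1.54e-06). In complex I it was followed by Ndufb6 (289 and 291 TPM against 195 and 225 TPM, log2 change -0.59 ± 0.082, adjusted p = 0.000148) and Ndufa10 (176 and 164 TPM against 125 and 122 TPM, log2 change -0.57 ± 0.079, adjusted p = 0.000134). In complex II the anchors fell most. Sdhc went from 414 and 393 TPM to 242 and 231 TPM (log2 change -0.88 ± 0.075, adjusted p = 5.39e-06) and Sdhd from 196 and 192 TPM to 135 and 140 TPM (-0.61 ± 0.047, adjusted p = 3.03e-06), whereas Sdha fell by 0.42 on the log2 scale (SE 0.053, adjusted p = 7.61e-05), to 195 and 201 TPM, and Sdhb had 273 and 270 TPM and was not past the threshold. In complex III Uqcrq fell by 0.62 on the log2 scale (SE 0.093, adjusted p = 0.00023), Uqcrfs1 by 0.34 (SE 0.071, adjusted p = 0.00174) and Uqcrb by 0.29 (SE 0.085, adjusted p = 0.0123), Uqcrc1 by 0.23 (SE 0.068, adjusted p = 0.0134), and Cyc1 was not past the threshold with 226 and 214 TPM in control PCs.

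In ATP synthase Atp5d went from 482 and 465 TPM to 333 and 304 TPM (log2 change -0.69 ± 0.078, adjusted p = 3.60e-05), Atp5b fell by 0.54 on the log2 scale (SE 0.078, adjusted p = 0.000183), and Atp5j, in the peripheral stalk, by 0.43 (SE 0.10, adjusted p = 0.00343). Atp5a1 fell by 0.34 (SE 0.075, adjusted p = 0.0025) and Atp5g3 by 0.31 (SE 0.092, adjusted p = 0.0121). Atp5g1 (7.73 and 7.47 TPM) and Atp5g2 (3.27 and 1.84 TPM) were not past the threshold. The subunits that rose were all of complex I. Ndufs3, a core subunit near the quinone site, went from 74.8 and 75.8 TPM to 119 and 113 TPM (log2 change 0.50 ± 0.098, adjusted p = 0.0012), Ndufb2 from 162 and 181 TPM to 224 and 236 TPM (0.31 ± 0.077, adjusted p = 0.00483), and Ndufs7, also a core subunit, from 144 and 127 TPM to 176 and 168 TPM (0.24 ± 0.085, adjusted p = 0.0298). Ndufs1 and Ndufv1 were not past the threshold. The calls on Uqcrc1 and Uqcrb were lost on the deposited scale, and quantile normalization lost those on Uqcrc1 (log2 change -0.01), Uqcrb (-0.19) and Atp5g3 (-0.10). Ndufs7 was lost in 4 of 18 alternatives and Ndufs3 and Ndufb2 in none. Ndufb2 has 12 copies by the same measure, the longest of 444 bases, and overlaps Adck2 on the same strand. Ndufs3 has a copy of 883 bases at 98.5% identity elsewhere in the genome and overlaps Kbtbd4 on the other strand. Its promoter window is shown with an ETS-type match on each strand in capitals.
Ndufs3, chr2:90904672-90904971, minus strand: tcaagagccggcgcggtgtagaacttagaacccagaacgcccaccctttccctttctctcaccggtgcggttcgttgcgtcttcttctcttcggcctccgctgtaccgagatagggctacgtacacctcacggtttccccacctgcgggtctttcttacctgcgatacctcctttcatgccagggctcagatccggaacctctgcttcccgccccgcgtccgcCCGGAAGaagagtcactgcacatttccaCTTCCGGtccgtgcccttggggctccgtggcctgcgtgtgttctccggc

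Subunits outside the 51 were read from lists of their own, beside 10.3% of all genes higher and 18.0% lower without Xbp1, 13.3% and 16.2% in Mist1-deficient PCs, and 37.6% and 38.4% in control PCs against control PBs. Of 15 other tested subunits of complexes I, III and V, 2 rose (Ndufa12 and Ndufc2) and 0 fell without Xbp1 (limma, 1 and 0 past the threshold against CreER/CreER PBs), and of 16 tested in PCs 7 rose and 1 fell without Mist1. Among the risers in PCs were Uqcr10, Uqcr11 and Uqcrh of complex III (log2 changes 0.35, 0.49 and 0.38) and the ATP synthase inhibitor Atpif1 (0.81 ± 0.097, adjusted p = 0.00397). The 1 that fell was Ndufa13 (log2 change -0.29). Of 11 complex IV subunits, 2 rose without Xbp1 (Cox6c by 0.33 and Cox7a2l by 0.38 on the log2 scale) and 2 rose without Mist1 in PCs (Cox8a by 0.30 and Cox5a by 0.18), while 8 fell and 1 rose in control PCs against control PBs. Complex IV transcripts summed to 5809 and 5729 TPM in control PBs, 7790 and 7655 TPM in Xbp1-deficient PBs, 3979 and 4253 TPM in control PCs, and 4502 and 4576 TPM in Mist1-deficient PCs.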

How the data were processed

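RNA-seq was performed on 2 libraries for each of 5 groups, and Mist1 Bio-ChIP-seq gave 2 peak lists. Per the labels and methods, the authors trimmed reads with cutadapt, aligned them to mm9 with STAR 2.4.2, used featureCounts 1.5 to count reads in genes, and deposited TPM computed without immunoglobulin and T cell receptor genes. The 543 gene rows found in the PC files only sum to 0 TPM. For Bio-ChIP-seq the authors used Bowtie 1.0.0, SAMtools 1.9, Picard 2.18.27 and MACS on mm9 and deposited peak positions per experiment. The score column of these deposited files is 0 throughout and was not used.

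The files hold no counts, so the depth is unknown, and limma 3.58.1 (R 4.3.3; lmFit and eBayes with trend) replaced the count-based test of the study. Each library was divided by its median ratio to the per-gene geometric mean. The fit of log2(TPM + 0.1) took genes that reached 1 TPM in 2 or more of its libraries. Changes are given on this log2 scale, and understate those of low genes. P-values were adjusted by Benjamini-Hochberg over all genes tested, with a threshold of 0.05. The PB comparisons used the 6 PB libraries, the Mist1 comparison the 4 PC libraries, and the comparisons across cell types all 10. The procedure was tested on simulated data. The subunits, gene lists and tests were chosen with earlier results of these data known. In each comparison and complex the 3 largest changes past the threshold were named, beside the catalytic, core and c ring genes listed for every comparison. Ndufa2, Ndufa3, Ndufa5 and other genes outside that rule are given by name and value. The alternatives run were unscaled TPM, quantile normalization, a pseudocount of 1 or 0.01, no filter or a filter of 5 TPM, eBayes without trend, only the libraries compared, and each library left out.

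Peaks were intersected with bedtools 2.31.1 (at least 1 bp) and assigned to start sites within 1 kb. Copies were sought with blastn 2.17.0. Promoter windows are from RefSeq (GRCm38.p6), where Atp5f1 was matched as Atp5pb.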

Additional observations from a re-analysis of the deposited data

Results flagged for a closer look

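The change of Ndufb9 upon Mist1 loss differed between PCs and PBs, with a difference of -0.44 on the log2 scale (SE 0.082, adjusted p = 0.0206, limma over all 10 libraries). Both mutant libraries were below both control libraries in each cell type, at 321 and 316 against 509 and 516 TPM in PCs and at 446 and 453 against 530 and 543 TPM in PBs. The call was kept in 11 of 17 alternatives. The mutant alleles and the controls differ between the cell types, and their part in this difference cannot be told apart.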

How the results depend on the processing

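The number of subunits past the threshold depended on the scaling and on single libraries. Without Xbp1, against control PBs, 2 were higher and 5 lower. The higher count was 33 with TPM as deposited, 30 with quantile normalization, 1 with no filter, 0 with eBayes without trend and 10 with only the 4 libraries compared, and leaving out 1 library gave 0 to 10. The lower count was 2 without trend and 1 to 6 with 1 library left out. For CreER/CreER against control PBs, quantile normalization gave 1 lower, and the median of the subunits, 0.10, was -0.0166 without CreER/CreER replicate 2, with a range of -0.0166 to 0.207 over the libraries left out. For Xbp1-deficient against CreER/CreER PBs (1 higher, 6 lower), the higher count was 29 with TPM as deposited, 29 with quantile normalization and 2 with the 5 TPM filter, and leaving out 1 library gave 0 to 8 higher and 4 to 13 lower. For Mist1-deficient PCs (11 higher, 4 lower), the lower count was 9 with TPM as deposited, 8 with quantile normalization and 2 with no filter, eBayes without trend gave 3 higher and 1 lower, and leaving out 1 library gave 1 to 16 higher and 1 to 10 lower. For control PCs against control PBs (3 higher, 31 lower), the higher count was 5 on the deposited scale and 6 after quantile normalization, and leaving out 1 library gave 2 to 4 higher and 24 to 34 lower. For Mist1 loss in PCs against PBs (0 higher, 1 lower), TPM as deposited gave 1 and 3, quantile normalization 4 and 4, and no trend 0 lower, and leaving out 1 library gave 0 to 2 higher and 0 to 2 lower. The causes of these shifts were not tested. The counts in this paragraph cover subunits alone, so a shift of all genes cannot be told apart from them. With 1 library left out, the lone library of a group is assumed to vary like the others.

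No call on a subunit changed direction. The number of subunits with a common Mist1 region, 35, was 33 to 40 under the other overlap, distance and list choices. No paired analysis was possible because the labels carry no replicate numbers. For the PC comparison, only the 4 libraries compared were in the fit, so that this alternative has no value of its own. With 2 libraries per group, no library could be tested as an outlier, and without counts low genes such as Atp5g1 and Atp5g2 have no counting interval.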

Other observations

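Lists of genes that serve the complexes without being subunits were read from the same limma fits, in which 10.3% of all genes were higher and 18.0% lower without Xbp1, 13.3% and 16.2% in Mist1-deficient PCs, and 37.6% and 38.4% in control PCs against control PBs. Without Xbp1, against control PBs, 3 of 23 assembly factors rose and 2 fell. Foxred1, an assembly factor of complex I, fell by 0.79 on the log2 scale (SE 0.089, adjusted p = 0.000318), Sdhaf1, which helps to mature Sdhb, fell by 0.69 (SE 0.11, adjusted p = 0.00243), and the complex I assembly factor Ndufaf3 rose by 0.60 (SE 0.075, adjusted p = 0.000554). In Mist1-deficient PCs 2 of 23 rose, Foxred1 by 0.63 (SE 0.086, adjusted p = 0.00567) and Ndufaf3 by 0.45 (SE 0.083, adjusted p = 0.0136), and 2 fell, Tmem70 and Acad9, by 0.30 and 0.28.

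Of 18 citric acid cycle genes, 1 rose and 4 fell without Xbp1 (Idh3g, Ogdh, Dld and Pdha1, with log2 changes between -0.35 and -0.34), 1 rose and 1 fell in Mist1-deficient PCs, and 2 rose and 10 fell in control PCs against control PBs, among them Fh1, fumarase, with a log2 change of -1.06. Of 11 carrier, porin and cytochrome c genes, 3 rose and 2 fell without Xbp1. Mpc2, a subunit of the pyruvate carrier, had a log2 change of -1.0 (SE 0.12, adjusted p = 0.000417) there and of 0.32 (SE 0.059, adjusted p = 0.0125) in Mist1-deficient PCs, where 3 rose and 1 fell. In control PCs against control PBs 2 rose and 8 fell, with the largest change in the ADP/ATP carrier Slc25a4 (log2 change -1.89, SE 0.051).

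Among regulators of mitochondrial genes, 0 of 13 rose and 3 fell without Xbp1, which were Myc (log2 change -1.05), Tfb1m (-1.01), a mitochondrial rRNA methyltransferase, and Gabpa (-0.33), the DNA-binding subunit of GABP. In Mist1-deficient PCs 3 of 12 rose and 2 fell, again Myc (-0.76) and Tfb1m (-0.74), while Esrra, an orphan nuclear receptor, rose by 0.46. In CreER/CreER PBs none of the genes of these lists was past the threshold by limma, while at an unadjusted p under 0.05 there were 3 higher assembly factors, and 1 higher and 2 lower regulators.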
